A study of Mus musculus with 2 samples.

Results

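The genes described here encode the machinery of oxidative phosphorylation (OXPHOS). They were taken from the 28001 features of the deposited count matrices by symbol: those beginning with Nduf, Uqcr or Atp5, those of the Cox4 to Cox8 subunits, and the mitochondrially encoded mt-Nd, mt-Co, mt-Atp and mt-Cytb genes. This gave 88 genes from 19 nuclear chromosomes and 13 from the mitochondrial chromosome. Of the nuclear genes, 36 were placed in complex I, 8 in complex III, 20 in complex IV and 16 in complex V, and 8 are complex I assembly factors (Ndufaf genes and Atp5sl). The symbol rule also takes a few proteins that are not fixed subunits, such as Atp5s. Of the mitochondrial genes, 7 belong to complex I, 1 to complex III, 3 to complex IV and 2 to complex V.

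Messenger RNA was counted in single cells of newborn (P0) C57BL/6J mouse forebrain, dissected to hold the hippocampus with the lateral and dorsal cortex. One library pooled 4 Gmnc-/- animals, which came from 2 litters, and the other pooled 4 of their wild-type littermates. Gmnc encodes a regulator of multiciliated cell formation. The labels name no further allele or treatment and do not say which part of the gene is deleted. Gmnc itself gave 66 UMIs (unique molecules) in the wild-type and 86 in the Gmnc-/- cells kept, in 42 cells of each library. That is 0.822 CPM (0.636 to 1.05) and 0.810 CPM (0.648 to 1.0), CPM being UMIs scaled to a common total per group of cells. The 3′ tag may lie outside the deleted part, so these counts cannot check the genotype, and the genotype names below rest on the labels. With 1 library per genotype there is no replicate check and no test, and library and genotype cannot be told apart.

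Oxidative phosphorylation passes electrons from NADH and succinate along complexes I to IV of the inner mitochondrial membrane to oxygen, and complex V uses the proton gradient this builds to make ATP. Complexes I, III, IV and V are mosaics of subunits from both genomes, while complex II is wholly nuclear. Mitochondrial DNA is read as long transcripts that are cut into single messages, whereas the nuclear subunits are separate genes whose promoters often hold sites for factors such as NRF-1, GABP and YY1. Neurons are known to rely on this pathway for most of their ATP, and neural progenitors to draw more on glycolysis.

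The chemistry counts the 3′ ends of polyadenylated messages, but where on the mitochondrial genes the reads fell was not analysed here. To show how the mitochondrial reading frames end, the last 24 bases are given for the 3 genes that differed most between the libraries and for the 3 whose stop codon is not complete in the DNA. Capitals mark the stop codon, or the single T that becomes one once the poly(A) tail is added.
mt-Nd3: aaaggattagaatgaacagagTAA
mt-Atp8: cctcattcattaccccaacaaTAA
mt-Atp6: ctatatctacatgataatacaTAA
mt-Co3: tctccatttattgatgaggatctT
mt-Nd4: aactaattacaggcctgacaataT
mt-Cytb: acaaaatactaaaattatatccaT
In mm10 these genes lie on the plus strand, mt-Nd3 at chrM:9459-9806, mt-Atp8 at chrM:7766-7969, mt-Atp6 at chrM:7927-8607, mt-Co3 at chrM:8607-9390, mt-Nd4 at chrM:10167-11544 and mt-Cytb at chrM:14145-15288. The stop was complete in 10 of the 13 genes and incomplete in 3. The mt-Atp8 and mt-Atp6 frames, which lie on a shared message so that the end of mt-Atp8 is internal to it, overlap by 43 bases and those of mt-Nd4l and mt-Nd4 by 7, on the same strand. The mt-Nd5 and mt-Nd6 genes overlap by 14 bases on opposite strands. How counting assigned reads within these overlaps is not given in the sources used here.

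For the nuclear genes, windows around the NRF-1 core are shown from 4 promoters that hold it before the start site. The core, in capitals, was searched as GCATGCGC and its reverse complement GCGCATGC, which overlap each other in some promoters.
Atp5g2: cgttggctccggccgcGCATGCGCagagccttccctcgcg
Ndufa6: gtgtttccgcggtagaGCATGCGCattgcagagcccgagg
Ndufa11: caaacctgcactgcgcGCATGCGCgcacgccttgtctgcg
Atp5k: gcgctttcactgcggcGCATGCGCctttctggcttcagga
They are RefSeq sequence of GRCm38.p6, read 5′ to 3′ on the gene's strand. Atp5g2 is at chr15:102671064-102671103, Ndufa6 at chr15:82354351-82354390 and Atp5k at chr5:108434424-108434463, on the minus strand, and Ndufa11 is at chr17:56717688-56717727 on the plus strand. Promoters of 300 bases, 250 before and 50 after the start, were matched for 73 of the 88 nuclear genes. The NRF-1 core was in 15.1% of them, against 3.05% of all 27025 genes in the table. The ETS core CCGGAAG, the type of site GABP binds, was in 20.5% against 9.93%, and the YY1 core AAGATGGC in 15.1% against 3.19%, on either strand. These cores are not particular to the OXPHOS genes. Among genes of the mitochondrial and the cytoplasmic ribosome the ETS core was in 36.8% and 40%. For the YY1 core these shares were 17.65% and 10.8%, and for the NRF-1 core 11.8% and 4.6%. A match of letters is a description, not a site. The 11 genes with the NRF-1 core had a median log2 ratio of knockout over wild-type level of -0.32, and the 61 measured genes without it -0.40.

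The libraries held 13033 wild-type and 27663 knockout barcodes with 88905819 and 155482657 UMIs, and 85 barcode sequences were in both. Cells of 1000 or more UMIs and under 10% mitochondrial UMIs were kept and called doublets were removed, 3.16% of wild-type and 20.3% of knockout cells. This left 10592 and 20851 cells with a median of 6022 and 4477 UMIs. The mitochondrial limit removed cells unequally, taking 12184 wild-type cells to 10938 and 26199 knockout cells to 26178. Clusters, built without the OXPHOS genes, were named from marker genes, and 12 named classes could be compared, 6 neural and 6 of vessels, meninges, immune and red blood cells. Ependymal-like cells (131 and 0) and Cajal-Retzius-like cells (38 and 1) could not, and 884 and 1742 cells stayed unnamed. Class membership was not firm: excitatory neuron-like cells numbered 2061 and 4731, but 2471 and 5785 with another clustering seed. The astroglia-like class joins clusters named from markers of apical progenitors with those named from markers of astrocytes.

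Transcripts of both genomes took a smaller share of UMIs in the knockout library, and the mitochondrial ones by more. Parentheses hold 95% intervals that cover counting error only. The 13 mitochondrial genes summed to 31268 CPM (31229 to 31307) among wild-type cells and to 12575 CPM (12554 to 12597) among knockout cells, a ratio of 0.402 (0.401 to 0.403). The 88 nuclear genes summed to 22350 CPM (22317 to 22383) and 16936 CPM (16911 to 16961), a ratio of 0.758 (0.756 to 0.759). Per nuclear OXPHOS UMI there were 1.4 mitochondrial UMIs in wild-type and 0.743 in knockout cells, which is 1.88-fold lower. Because CPM is a share, fewer of these molecules and more of others cannot be told apart.

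Single genes were compared by the log2 ratio of knockout over wild-type CPM with 5 CPM added to both, which understates the ratio of low genes, and 1.5-fold was the size counted. All 13 mitochondrial genes were lower by more than that, with a median of -1.25. Of the 88 nuclear genes, 86 reached 50 UMIs over both libraries, and Cox8b and Cox8c did not. Of these 86, 18 (20.9%) were lower by more than 1.5-fold and 0 were higher, beside 4.84% and 2.89% of the 17305 features measured. The same 50 UMIs were asked of all features, and the added 5 CPM makes it harder for scarce ones to pass 1.5-fold. Shares of features given here and below are therefore not matched to the members by level. At any size 81 of the 86 were lower, beside 46.8% of features, and their median was -0.37 beside 0.02. In cells of 3000 to 8000 UMIs, a range that brings the depths of the libraries together, 9 in place of 18 nuclear genes were more than 1.5-fold lower and the median was -0.27.

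**Figure D1:**
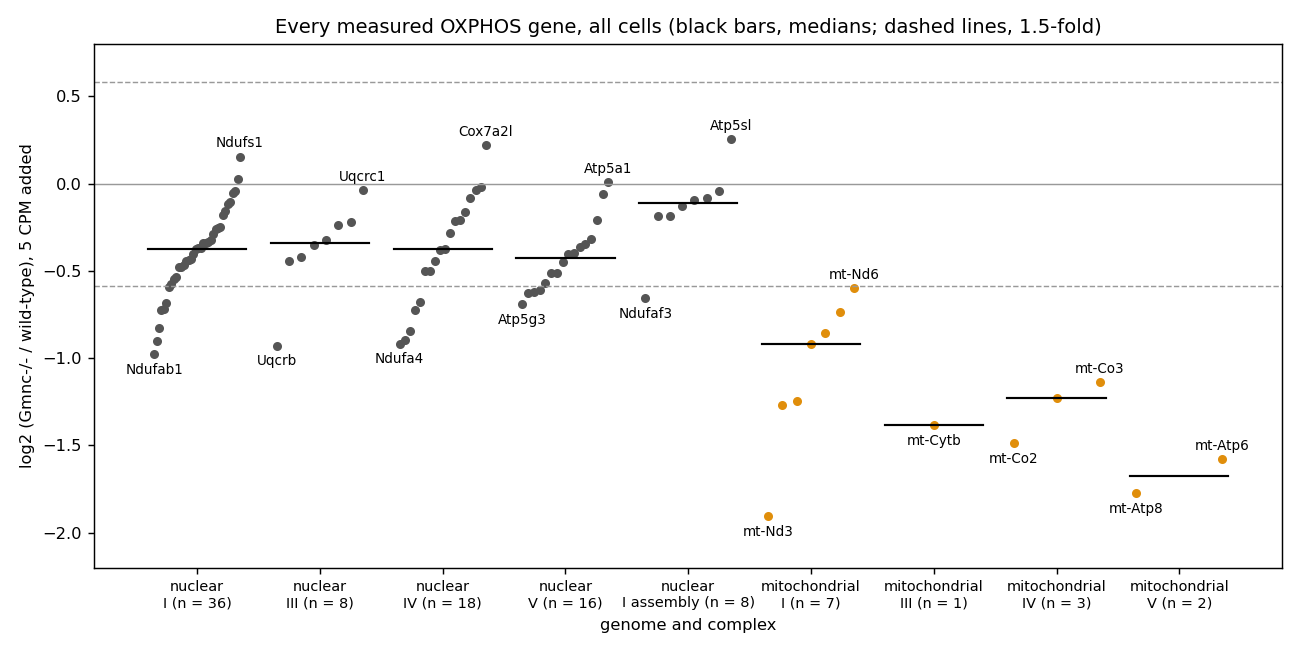
Each point is 1 measured OXPHOS gene, placed by genome and complex (x axis) and by log2 ratio of knockout over wild-type CPM with 5 CPM added (y axis), with black bars for medians and dashed lines at 1.5-fold. All 13 mitochondrial genes lie under the lower dashed line, and the nuclear genes spread from -0.98 (Ndufab1) to 0.26 (Atp5sl).

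Complex I takes electrons from NADH, and 7 of its core membrane subunits are mitochondrial genes. The lowest ratio among them was that of mt-Nd3, with 941 CPM (934 to 947) in wild-type and 248 CPM (245 to 251) in knockout cells and a log2 ratio of -1.90. It was followed by mt-Nd1 (2444 and 1012 CPM, -1.27) and mt-Nd2 (1703 and 714 CPM, -1.25). The differences were smaller for mt-Nd4l (292 and 152 CPM, -0.92), mt-Nd4 (1597 and 879 CPM, -0.86) and mt-Nd5 (334 and 199 CPM, -0.73). The scarce mt-Nd6, the one member on the minus strand, had 38.2 CPM (36.9 to 39.6) and 23.5 CPM (22.6 to 24.5), a log2 ratio of -0.60. Knockout levels were thus below wild-type levels for all 7, with no overlap of the counting intervals.

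In complex III, mt-Cytb, the cytochrome b subunit, had 3813 CPM (3799 to 3826) in wild-type and 1458 CPM (1451 to 1465) in knockout cells, a log2 ratio of -1.38. In complex IV, which passes electrons to oxygen, mt-Co2 had 4888 and 1742 CPM (-1.49), mt-Co1 3596 and 1534 CPM (-1.23) and mt-Co3, the most abundant of the 13, 6154 and 2794 CPM (-1.14). The complex V genes share a message. Of these mt-Atp8 had 111 CPM (109 to 113) and 28.9 CPM (27.9 to 29.9), a log2 ratio of -1.77, and mt-Atp6 had 5357 and 1792 CPM (-1.58). By complex, the summed ratio was lowest for V (0.333), then III (0.382), IV (0.415) and I (0.439), and the counting intervals of these 4 do not overlap.

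The difference was therefore uneven within the mitochondrial genome. Of all UMIs on the 13 genes, mt-Atp6 took 17.1% in wild-type and 14.3% in knockout cells, and mt-Nd3 took 3.01% and 1.97%. Shares of mt-Co3 were 19.7% and 22.2%, and shares of mt-Nd4 were 5.11% and 6.99%. Within astroglia-like cells mt-Nd3 took 2.93% and 1.86%, and within excitatory neuron-like cells 3.31% and 2.06%.

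**Figure D2:**
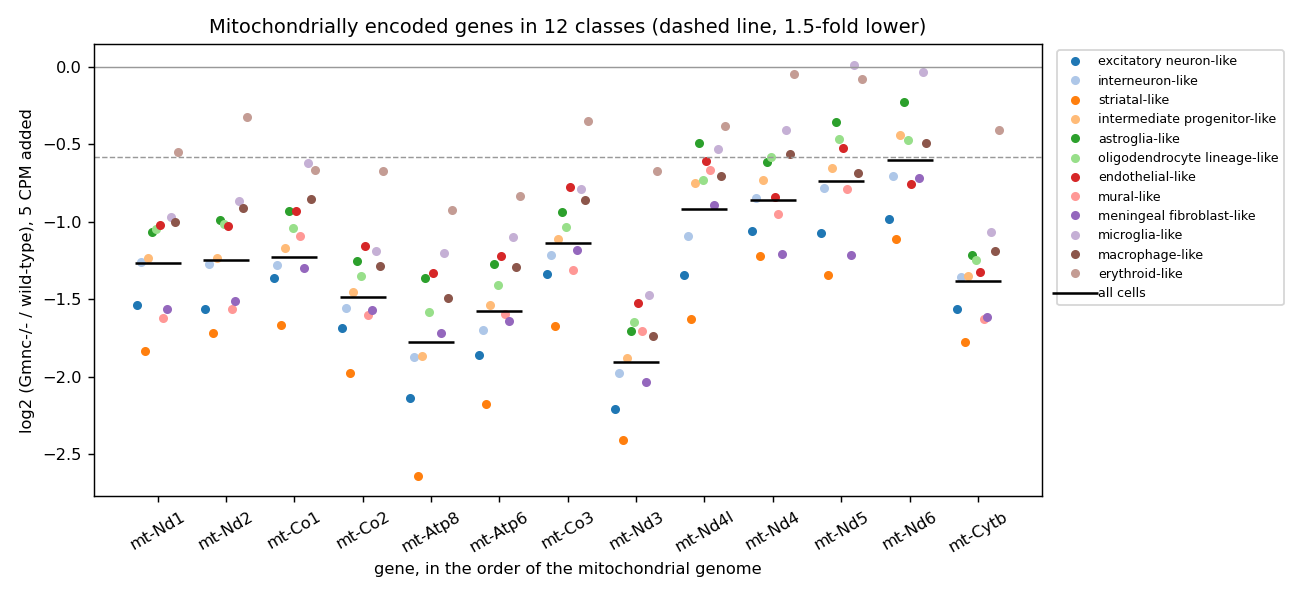
The log2 ratio of knockout over wild-type CPM with 5 CPM added (y axis) is shown for each mitochondrial gene in the order of the genome (x axis), with a coloured point per class and a black dash for all cells. Every point but that of mt-Nd5 in microglia-like cells (0.01) lies below 0, and the striatal-like point is the lowest for each of the 13 genes.

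Among nuclear genes the complexes lay close together. The summed ratio was 0.753 (0.75 to 0.756) for complex I, 0.779 (0.774 to 0.784) for complex III, 0.756 (0.754 to 0.759) for complex IV and 0.752 (0.749 to 0.755) for complex V. The complex I assembly factors stood at 0.865 (0.849 to 0.882). More than 1.5-fold lower were 7 of 36 genes of complex I and 1 of 8 of complex III. So were 5 of 18 measured of complex IV, 4 of 16 of complex V and 1 of the 8 assembly factors. The share of all measured features was 4.84%, from which a count of 1 of 8 cannot be told apart. The 5 of complex IV include the scarce Ndufa4l2 and Cox6b2, whose all-cell ratios are taken up below.

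The lowest ratio among nuclear genes of 50 CPM or more was that of Ndufab1 (ENSMUSG00000030869, chr7:122085403-122101886), the mitochondrial acyl carrier protein that also sits in complex I. It had 189 CPM (186 to 192) in wild-type and 93.8 CPM (91.9 to 95.6) in knockout cells, a log2 ratio of -0.98. Uqcrb (chr13:66900617-66905378), a small subunit of complex III, had 248 CPM (245 to 252) and 128 CPM (126 to 130), with -0.93. Ndufa4 (chr6:11900292-11907497), first described in complex I and now placed in complex IV, had 625 CPM (619 to 630) and 329 CPM (325 to 332), with -0.92. The complex I accessory subunits Ndufc2 (chr7:97400003-97407802) and Ndufb3 (chr1:58586384-58595964) had 467 and 247 CPM (-0.90) and 128 and 70.1 CPM (-0.83). None of these 5 is a catalytic core subunit. Among the most abundant nuclear messages, the complex IV subunits Cox7c (774 and 481 CPM, -0.68) and Cox6c (716 and 433 CPM, -0.72) also passed 1.5-fold, and Cox4i1 (952 and 850 CPM, -0.16) and Cox8a (742 and 569 CPM, -0.38) did not.

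At the other end was Cox7a2l (ENSMUSG00000024248, chr17:83501918-83517330). It has been described in the joining of complexes III and IV into supercomplexes, a role not examined here for the strain used. Cox7a2l had 327 CPM (323 to 331) in wild-type and 382 CPM (378 to 386) in knockout cells, a log2 ratio of 0.22. Ndufs1, the core subunit that carries several iron-sulphur clusters of complex I, had 52.6 CPM (51.1 to 54.3) and 59.2 CPM (57.7 to 60.7), with 0.16. For Ndufa9 of complex I (63.1 and 64.4 CPM, 0.03), for Atp5a1, the alpha subunit of the ATP synthase head (348 and 350 CPM, 0.01), and for the complex III core protein Uqcrc1 (107 and 104 CPM, -0.04), the interval of the ratio includes 1. The scarcer Atp5sl, below 50 CPM, had 10.5 and 13.5 CPM (0.26).

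Gene span differed along this order. The 28 measured nuclear members that span under 5 kb had a median log2 ratio of -0.41. It was -0.37 for the 46 of 5 to 20 kb and -0.11 for the 12 of 20 kb or more. More than 1.5-fold lower were 9 of the 28, beside 9.19% of features under 5 kb, and 9 of the 46, beside 5.96%. Of the 12, 0 were, beside 288 of 9338 features of 20 kb or more. A count of 0 of 12 cannot be told apart from that share. Over all measured features the medians were -0.09 under 5 kb, -0.02 from 5 to 20 kb, 0.06 from 20 to 100 kb and 0.18 at 100 kb or more. The part of span in the result was not tested.

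In every class compared the mitochondrial sum was lower among knockout cells, by an amount that differed between classes. The ratio was 0.282 (0.279 to 0.286) in striatal-like cells, 0.344 (0.342 to 0.345) in excitatory neuron-like, 0.367 in meningeal fibroblast-like, 0.373 in mural-like and 0.386 for interneuron-like cells. Intermediate progenitor-like cells had 0.414. The oligodendrocyte lineage-like class stood at 0.451, the astroglia-like one at 0.476, and ratios were 0.486 in endothelial-like and 0.488 in macrophage-like cells. The intervals of the fibroblast-like and mural-like classes overlap, as do those of the endothelial-like and macrophage-like ones. Microglia-like cells had 0.536 (0.530 to 0.542) and erythroid-like cells 0.692 (0.673 to 0.711). Over the alternatives run, the erythroid-like ratio ranged from 0.442, in female-pattern cells alone, to 0.903. The range was 0.479 to 0.657 in microglia-like, 0.430 to 0.493 in astroglia-like and 0.376 to 0.465 in intermediate progenitor-like cells. In excitatory neuron-like cells it was 0.275 to 0.454, so these ranges are wider than the counting intervals and many overlap. With cells of 2000 or more UMIs and under 5% mitochondrial UMIs the striatal-like ratio was 0.411. Over 31 clusters with at least 20 cells of each library, the mitochondrial sum was lower in 31 (0.254 to 0.692) and the nuclear sum in 30 (0.668 to 1.06).

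The nuclear ratio was nearer to 1 in each class. It was 0.75 in intermediate progenitor-like, 0.751 in astroglia-like, 0.760 in excitatory neuron-like, 0.769 in meningeal fibroblast-like, 0.774 in oligodendrocyte lineage-like and 0.806 in interneuron-like cells. Microglia-like (0.833), striatal-like (0.894), mural-like (0.903), macrophage-like (0.903) and endothelial-like cells (0.968) followed. Erythroid-like cells had 5446 CPM (5344 to 5549) in wild-type and 5759 CPM (5666 to 5854) in knockout cells, a ratio of 1.06. The values nearest to 1 turned with the processing. The erythroid-like ratio was 0.886 as a mean over cells, 0.758 in female-pattern cells and 0.971 in cells of 3000 to 8000 UMIs. At that depth the macrophage-like ratio was 1.02 and the endothelial-like one 0.760, and the endothelial-like ratio was 1.02 in male-pattern cells and with the stricter filter above.

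**Figure D3:**
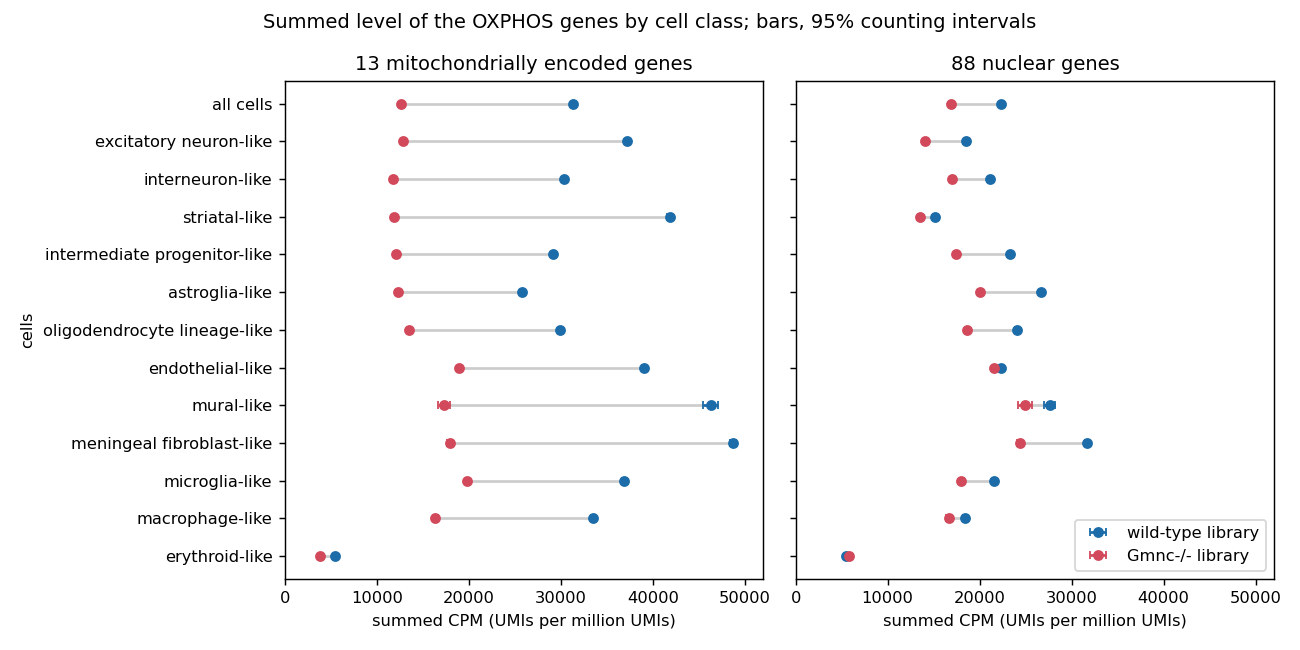
Summed CPM (x axis) of the 13 mitochondrial genes (left) and the 88 nuclear genes (right) is shown for all cells and each class (y axis), blue for the wild-type and red for the Gmnc-/- library, with 95% counting intervals. On the left the 6 neural classes spread from 25728 to 41822 CPM in blue and from 11725 to 13470 CPM in red.

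The median log2 ratio of all features differed between classes, from 0.04 in striatal-like to 0.57 in erythroid-like cells, so the median of the nuclear members is also given relative to it. The difference was -0.49 in erythroid-like, -0.48 in intermediate progenitor-like and -0.47 in astroglia-like cells. For the oligodendrocyte lineage-like class it was -0.45, and for microglia-like cells -0.44. It was -0.40 in meningeal fibroblast-like, -0.39 in excitatory neuron-like, -0.35 in interneuron-like, -0.24 in mural-like and macrophage-like, -0.17 in striatal-like and -0.14 in endothelial-like cells. The nuclear members were therefore below the median of all features in all 12 classes. Of the members measured over all cells, 28 span under 5 kb and 46 span 5 to 20 kb, with a median span of 7.33 kb. Beside features of 5 to 20 kb, the members had the lower median in every class. In the mural-like class these medians were -0.13 for the members and -0.05 for the features. Beside features under 5 kb, the members had the lower median in every class but the mural-like one, where those features had -0.15. In the erythroid-like class the nuclear members' own median was 0.08, and -0.42 with median-of-ratios scaling, which takes out a shift shared by most features.

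By count, 18 of 81 measured nuclear members were more than 1.5-fold lower in excitatory neuron-like cells, beside 2.73% of features. In intermediate progenitor-like cells 18 of 81 were, beside 2.87%, in astroglia-like cells 17 of 84, beside 2.42%, in oligodendrocyte lineage-like cells 14 of 81, beside 2.88%, and in interneuron-like cells 10 of 81, beside 2.87%. Striatal-like cells had 6 of 79, beside 3.09%, and microglia-like cells 8 of 79, beside 3.99%. Shares nearer to the background stood in meningeal fibroblast-like cells (10 of 79, beside 6.61%), mural-like cells (8 of 70, beside 11.1%), macrophage-like cells (6 of 73, beside 8.1%) and endothelial-like cells (2 of 83, beside 4.36%). In erythroid-like cells 0 of 72 were lower, beside 4.5%, and 5 were more than 1.5-fold higher, beside 48.8%. In mural-like cells 2 were higher, beside 18.7%. Most of these counts moved widely with the processing. Over the alternatives they ran over 7 to 20 in excitatory neuron-like, 17 to 32 in intermediate progenitor-like, 15 to 34 in astroglia-like and 5 to 17 in interneuron-like cells. In the oligodendrocyte lineage-like class the range was 6 to 24. It was 7 to 34 in microglia-like, 5 to 21 in meningeal fibroblast-like, 5 to 20 in mural-like, 1 to 23 in endothelial-like and 0 to 24 in erythroid-like cells, and narrower in striatal-like (4 to 7) and macrophage-like cells (4 to 9).

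The balance between the genomes also differed between classes, over a wider range among wild-type than knockout cells. Mitochondrial UMIs per nuclear OXPHOS UMI in wild-type cells were 0.965 in the astroglia-like class, 1.24 in the oligodendrocyte lineage-like, 1.25 in the intermediate progenitor-like, 1.44 in the interneuron-like, 2.01 in the excitatory neuron-like and 2.77 in the striatal-like class. Among knockout cells of these classes they were 0.612, 0.725, 0.691, 0.690, 0.911 and 0.874. The highest mitochondrial sum of the neural classes was 1.63 times the lowest among wild-type and 1.15 times among knockout cells, and for the nuclear sum it was 1.76 and 1.48 times. Striatal-like cells had the highest mitochondrial sum of these classes in the wild-type library (41822 CPM, against 11808 CPM in the knockout library) and the lowest nuclear sum in both (15117 and 13518 CPM). Their median depth was 2371 and 2916 UMIs, the lowest of the neural classes.

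**Figure D4:**
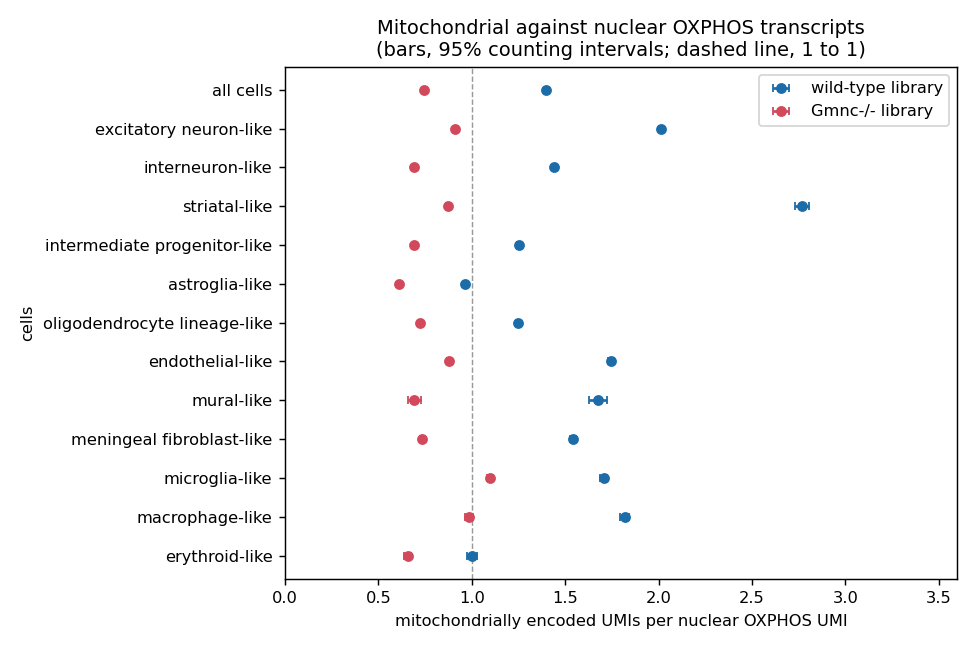
Mitochondrially encoded UMIs per nuclear OXPHOS UMI (x axis) are shown for all cells and each class (y axis), blue for the wild-type and red for the Gmnc-/- library, with 95% counting intervals and a dashed line at 1. Wild-type striatal-like cells stand at 2.77, and among knockout classes that of microglia-like cells is at 1.10.

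Outside the neural classes the balance among wild-type cells was 1.54 in meningeal fibroblast-like, 1.68 in mural-like, 1.71 in microglia-like, 1.74 in endothelial-like and 1.82 in macrophage-like cells. Among knockout cells these were 0.735, 0.692, 1.10, 0.876 and 0.983. Erythroid-like cells, whose lineage sheds its mitochondria as it matures, had the lowest sums of the 12 classes in both libraries, and a balance of 1.0 and 0.656. Wild-type ependymal-like cells, a class with no knockout cell, had 28590 CPM of mitochondrial and 24586 CPM of nuclear transcripts and a balance of 1.16.

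Of the 68 nuclear members measured in all 12 classes, 16 were lower among knockout cells in every class and 33 in at least 11. Of all 1327 features measured in the 12 classes, 11.2% were lower in every class and 20.6% in at least 11. Classes share their library and are not replicates.

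The genes lowest over all cells were also low across classes. The class sums are parts of the all-cell sums by which these genes were picked, so this is no separate check. Ndufab1 had log2 ratios from -1.24 to -0.27 and passed 1.5-fold in 10 of 12 classes. Ndufc2 (-0.98 to -0.19) passed it in 10, Uqcrb (-0.94 to -0.32) in 9, Ndufb3 (-1.02 to -0.16) in 9 and Cox7c (-0.76 to -0.36) in 8. Uqcrh, the hinge protein of complex III, was lower in 12 of 12 classes but by less, from -0.40 to -0.02. Ndufa4 was lower in 11 of 12 and passed 1.5-fold in 9. Its exception was the mural-like class, with 102 and 145 CPM from 30 and 25 UMIs. There the direction turned with no limit on mitochondrial UMIs, to 119 CPM of Ndufa4 in wild-type and 107 CPM in knockout cells. Of the mitochondrial genes, mt-Nd3, mt-Atp6, mt-Co1 and mt-Co2 passed 1.5-fold in 12 of 12 classes.

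Cox7a2l was the 1 of those 68 members higher in all 12 classes, with log2 ratios from 0.11 in intermediate progenitor-like to 1.0 in erythroid-like cells. Of the features measured in all classes, 23.1% were higher in all 12. Relative to the median of all features of the class it was higher in 11 and lower in intermediate progenitor-like cells. Its share of the UMIs of Cox7a2 and Cox7a2l was 39.8% (39.4% to 40.2%) in wild-type and 47.1% (46.8% to 47.5%) in knockout cells. The shares were 38.0% and 46.3% in excitatory neuron-like, 40.7% and 47.4% in astroglia-like, 43.4% and 54.2% in microglia-like and 27.3% and 40.4% in erythroid-like cells. In mural-like cells they were 47.0% and 47.6%, with intervals that overlap.

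Some subunits exist as pairs in which one gene is used in particular tissues. For Ndufa4l2 and Cox4i2 the mural-like class had the highest share of the 12 classes and the endothelial-like class the next, in both libraries. UMIs count molecules at their 3′ end, so genes of a pair were compared without scaling by length. Ndufa4l2, the hypoxia-responsive relative of Ndufa4, gave 320 of 350 UMIs of the pair in wild-type mural-like cells (91.4%, 88% to 94.1%) and 147 of 172 in knockout ones (85.5%, 79.3% to 90.4%). In endothelial-like cells its share was 26.8% (25.2% to 28.5%) and 31.5% (28.9% to 34.1%). In the 6 neural classes its share was at most 0.322%. In microglia-like cells, another class with few UMIs of the gene, Ndufa4l2 gave 0 of 1164 UMIs in wild-type cells, which allows a share of up to 0.316% (Clopper-Pearson), and 1 of 518 in knockout cells. The part of free RNA in these low shares was not tested. In CPM, Ndufa4l2 stood at 1092 and 855 in mural-like and at 182 and 177 in endothelial-like cells.

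Cox4i2, the oxygen-responsive isoform of the complex IV subunit Cox4, gave 20.3% (17.0% to 24%) and 16.4% (12.4% to 21.1%) of Cox4 UMIs in mural-like cells. It gave 6.25% and 4.52% in endothelial-like and 1.47% and 1.52% in astroglia-like cells. Cox6b2, best known from testis, made up 35.5% (33.3% to 37.7%) of Cox6b UMIs in wild-type ependymal-like cells, 29.2% and 31.7% in erythroid-like and 11.8% and 14.9% in meningeal fibroblast-like cells. Among classes with low shares the order differed between the libraries, as for Cox4i2 in meningeal fibroblast-like cells, with 2 of 3083 and 7 of 1516 UMIs.

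**Figure D5:**
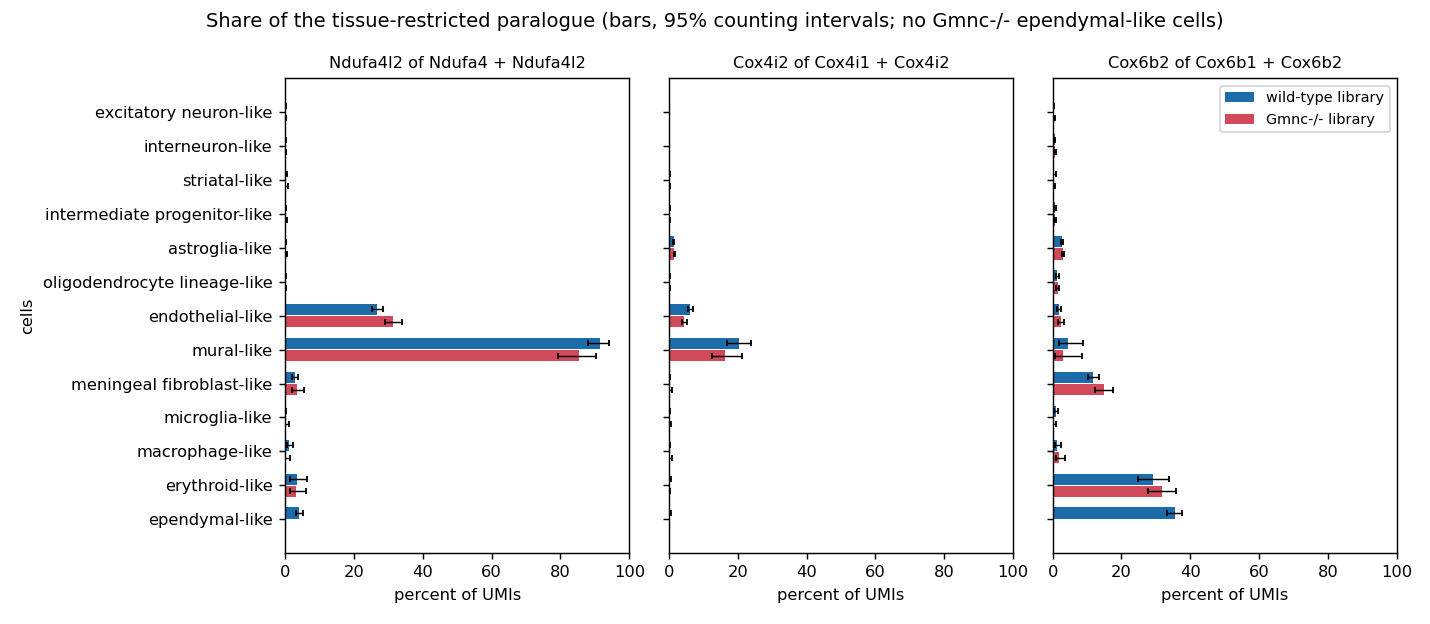
Bars give the percent of UMIs (x axis) that Ndufa4l2, Cox4i2 and Cox6b2 took of their pair in each class (y axis), blue for the wild-type and red for the Gmnc-/- library, with 95% counting intervals. Ndufa4l2 outnumbers its partner in mural-like cells (91.4% and 85.5%), and the Cox6b2 bars are longest in ependymal-like and erythroid-like cells.

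Over all cells Ndufa4l2 had 15.9 and 6.26 CPM, a ratio of 0.393, and Cox6b2 had 19.3 and 8.52 CPM, a ratio of 0.442, and both count among the 18 genes above. Of the 1549 wild-type Cox6b2 UMIs, 651 lay in ependymal-like cells, a class with 0 knockout cells. Of the 1280 wild-type Ndufa4l2 UMIs, 741 lay in endothelial-like and 320 in mural-like cells, and of the 665 knockout ones 405 and 147. These all-cell ratios thus also carry the makeup of the libraries, and its part was not tested. For Ndufa4l2 the log2 ratio was -0.35 in mural-like, -0.04 in endothelial-like, -0.22 in astroglia-like and -0.52 in meningeal fibroblast-like cells. The class with the most knockout UMIs of Cox6b2 was the astroglia-like one (391 of 905), where it had 16.6 and 14.5 CPM (-0.15). The Cox6b2 log2 ratio was -0.16 in the oligodendrocyte lineage-like class, 0.09 in meningeal fibroblast-like, 0.19 in erythroid-like and 0.23 in endothelial-like cells. These classes differed in size, with 231 wild-type and 172 knockout endothelial-like cells and 131 and 0 ependymal-like cells among the 10592 and 20851 kept. The mural-like class held 46 and 53 cells. With doublets kept its knockout level was 604 CPM for Ndufa4l2 and 195 CPM for Cox4i2.

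The muscle isoforms were scarce. Cox7a1 had 2.88 and 1.80 CPM over all cells. Its share of Cox7a1 and Cox7a2 UMIs in meningeal fibroblast-like cells was 4.06% (3.05% to 5.27%) in wild-type and 1.06% (0.391% to 2.30%) in knockout cells, from 53 and 6 UMIs. In microglia-like cells it was 3.06% (2.15% to 4.21%) and 2.01% (1.15% to 3.24%), from 36 and 16 UMIs. Over all cells Cox6a2 had 0.723 and 0.584 CPM. In microglia-like cells it took 2.93% (1.89% to 4.33%) and 4.93% (3.27% to 7.09%) of Cox6a UMIs, from 24 and 27 UMIs. For both genes the microglia-like intervals of the libraries overlap. The 3 genes of the c subunit of complex V, which encode the same mature protein, were used in near proportions: Atp5g2 gave 46.2% and 45.8% of their UMIs, Atp5g1 31.5% and 33.5%, and Atp5g3 22.3% and 20.7%. In excitatory neuron-like cells Atp5g1 took 42.0% and 40.6%, and in astroglia-like cells 28.3% and 30.2%. Many nuclear OXPHOS genes have close copies or processed pseudogenes, and how reads shared with them were counted is not given in the sources used here.

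Genes that work beside the complexes were taken from lists of the pathway, and their counts stand beside 4.84% of all features more than 1.5-fold lower and 2.89% higher. Of complex II and the electron carriers, 2 of 6 measured genes were more than 1.5-fold lower and 0 higher, and the median log2 ratio was -0.18. These were Sdhd, a membrane anchor of complex II (38.0 and 12.9 CPM, -1.27), and Cycs, which is cytochrome c (121 and 75.7 CPM, -0.64), whereas the catalytic subunits Sdha (90 and 85.9 CPM, -0.06) and Sdhb (127 and 128 CPM, 0.01) differed little. Of 35 measured assembly factors outside the symbol rule, 2 were more than 1.5-fold lower, a share near that of all features, namely the copper chaperone Cox17 (-0.77) and Cmc1 (-0.76). None was higher by that size, 27 were lower at any size, beside 46.8% of features, and the median was -0.17. Of 16 genes of the tricarboxylic acid cycle, 2 were more than 1.5-fold lower, Fh1 (-0.88) and Idh3a (-0.66), and 0 higher, 10 were lower at any size, and the median was -0.13.

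Genes that copy, read and process mitochondrial DNA lay at the median of all features. Over 25 measured genes the median was 0.02, with 0 more than 1.5-fold lower and 1 higher. That was Peo1, the mitochondrial DNA helicase (9.06 and 18.9 CPM, 0.77). Tfam, which packs mitochondrial DNA and starts its transcription, had 37.1 and 36.6 CPM (-0.02) and the polymerase Polrmt 5.91 and 5.39 CPM (-0.07). Lrpprc, which stabilises mitochondrial messages, had 36.3 and 43.0 CPM (0.22), and its partner Slirp 114 and 83.7 CPM (-0.43). Of 10 regulators of mitochondrial biogenesis 0 passed 1.5-fold in either direction. Ppargc1a had 27.3 and 27.0 CPM, Nrf1 98.8 and 105 CPM and Yy1 85.0 and 108 CPM.

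Other measures differed between the libraries as well. The mitochondrial ribosome summed to a ratio of 0.820, with 7 of 76 measured genes more than 1.5-fold lower and 0 higher. The cytoplasmic ribosome summed to 0.850, with 10 of 84 lower and 2 higher by that size. Of features, 4.84% were lower and 2.89% higher. At any size 86.8% of the mitochondrial and 82.1% of the cytoplasmic ribosome genes were lower, with medians of -0.22 and -0.25. A drop at any size in most members is therefore not particular to the nuclear OXPHOS genes (94.2%, median -0.37). Malat1, an RNA kept in the nucleus, had 14780 CPM in wild-type and 18103 CPM in knockout cells, a ratio of 1.22. By class the Malat1 ratio ran from 0.791 in striatal-like to 2.25 in erythroid-like cells, and that of the cytoplasmic ribosome from 0.832 in intermediate progenitor-like to 1.06 in striatal-like cells. Of other long non-coding RNAs, Meg3 had a ratio of 1.23, Neat1 0.556 and Snhg11 0.346. The part of RNA quality, of the share of nuclear RNA and of depth in the OXPHOS results was not tested.

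With no limit on mitochondrial UMIs, 10.4% of wild-type and 0.0629% of knockout cells were at 10% or more, and the mitochondrial ratio was 0.355. Among named classes these wild-type shares were highest in Cajal-Retzius-like (29.4%), excitatory neuron-like (16.7%) and striatal-like cells (12.5%). The pools may hold both sexes, so cells with Xist or with Y-linked UMIs were also summed apart. Female-pattern cells had 31490 and 12681 CPM of mitochondrial and 22696 and 16998 CPM of nuclear transcripts, and male-pattern cells 31398 and 12340 CPM and 22017 and 17148 CPM. The difference in both genomes was present in each sex pattern.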

How the data were processed

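Single cells were measured in 2 libraries, 1 per genotype. The deposited matrices hold raw UMI counts per feature and barcode; the submitters' processing notes name Cell Ranger 7.1.0 and mm10, and the annotation version is not given in the sources used here. The genes and lists were chosen with earlier results of these data known. Cells of 1000 or more UMIs and under 10% mitochondrial UMIs were kept. Doublets were called per library with Scrublet in scanpy 1.11.5 (expected 10.4% and 22.1%) and removed. Both libraries were clustered together (30 principal components of 2000 variable genes, 15 neighbours, leidenalg 0.10.2, resolution 1), without OXPHOS genes and 7 genes of the multiciliation programme. Clusters took the name of the best-scoring marker list, and those of the apical progenitor and astrocyte lists were joined as astroglia-like. The score minimums (0.8 for neural, 2.5 for other classes) and the rules that left clusters unnamed were set after seeing the clusters, and the rebuilt names may differ from the study's. Counts were summed per library and class, with exact Poisson, Clopper-Pearson or conditional 95% intervals (SciPy 1.17.1). Gene positions come from the GENCODE annotation of mm10. Named in full were the 5 highest and 5 lowest nuclear genes of 50 CPM or more, all mitochondrial genes and the paralogue pairs; other genes were chosen after their values were seen. Tested on simulated sums of all barcodes over 28001 features, the calculation placed 134 of 134 genes changed 2-fold or more past 1.5-fold in the right direction, and 0 of 17545 unchanged ones. The simulation held counting error only, at the depth of whole libraries, and changed genes were drawn from the more abundant features. It checks the arithmetic, and does not cover scarce genes, small classes or differences between animals or preparations. Alternatives were other cell filters, doublets kept, cells of matched depth, each sex pattern, other clusterings, means over cells and other scalings.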

Additional observations from a re-analysis of the deposited data

Results flagged for a closer look

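The summed level of the nuclear OXPHOS genes was higher among knockout cells in the erythroid-like class (ratio 1.06) and lower in the other 11 classes, so that classes moved in opposite directions. That difference was not tested, since each genotype has 1 library. Over all features of the erythroid-like class the median log2 ratio was 0.57, against 0.08 for the nuclear OXPHOS genes. The ratio was 1.34 with doublets kept and fell below 1 in female-pattern cells (0.758), in cells of 3000 to 8000 UMIs (0.971) and as a mean over cells (0.886).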

How the results depend on the processing

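Over all cells, the mitochondrial, nuclear and balance ratios (0.402, 0.758 and 0.531) stayed below 1 under each alternative run. They were 0.365, 0.765 and 0.476 with cells of 500 UMIs and under 20% mitochondrial UMIs, 0.355, 0.768 and 0.463 with no mitochondrial limit, and 0.464, 0.75 and 0.618 with 2000 UMIs and under 5%. With doublets kept they were 0.411, 0.746 and 0.551. Averaging over single cells gave 0.362, 0.784 and 0.462. Male-pattern cells gave 0.393, 0.779 and 0.505, and female-pattern cells 0.749 and 0.538 for the last pair. Cells of 3000 to 8000 UMIs gave 0.367, 0.812 and 0.452, with 9 in place of 18 nuclear genes more than 1.5-fold lower. Leaving mitochondrial UMIs out of CPM gave a nuclear ratio of 0.743. In macrophage-like cells of 3000 to 8000 UMIs the nuclear ratio turned from 0.903 to 1.02 and the median from -0.17 to 0.0066. The causes were not tested. Another clustering seed, added after seeing the data, and the other clusterings of the same cells left the mitochondrial ratio between 0.268 and 0.292 in striatal-like and between 0.344 and 0.356 in excitatory neuron-like cells. No paired analysis was possible because each genotype has 1 library, so no fit with a replicate block can be made. Counting intervals do not cover variation between animals.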
